A study of Homo sapiens with 14 samples.

Results

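The control ATAC-seq list of U251MG cells held 2454 summits, and 978 of them (39.9%, exact interval 37.9 to 41.8%) had no summit of the radioresistant list within 250 bp on the same chromosome. These 978 control-only summits, of 15331 summits in both lists, are described here. They were chosen by the comparison of both lists, so their number and their distances describe the choice and were not tested. U251MG is an established human glioblastoma cell line, labelled as wild type in both conditions and grown in DMEM with fetal bovine serum. Control cells carry no irradiation label, and radioresistant cells were derived from the same line with 30 fractions of 2 Gy of X-rays, 60 Gy in all. ATAC-seq was done on 1 library per condition, and RNA-seq on 3 libraries per condition. The labels do not say whether the 3 RNA libraries of a group stem from different cultures. The p-values below therefore cover only the variation among these libraries, and that may be technical. The radioresistant cells are 1 derived population as far as the labels say, so the derivation itself was not replicated in a way that can be seen here.

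In ATAC-seq the transposase Tn5 inserts sequencing adapters into DNA that is not covered by nucleosomes, and pile-ups of insertions mark open promoters, enhancers and insulators. A peak caller reports each pile-up as a peak, and its summit is the base with the highest pile-up. Promoters of broadly used genes tend to be open in most cell types, whereas distal enhancers tend to be open in few. A list of summits holds no signal where no peak was called, so the lack of a radioresistant summit is not a measurement of closed chromatin. The radioresistant list held 12877 summits against 2454, and the read depth of either library is unknown. A difference of depth or quality between both libraries and a difference between the cells cannot be told apart.

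To show what such places look like, promoter windows of 6 protein-coding genes that hold a control-only summit are printed, each from 250 bases before to 50 bases after the gene's start. Letters are from RefSeq, build GRCh38.p14, 5′ to 3′ on the strand of the gene, and the 21 capitals are centred on the summit. GTF2H4, a subunit of the repair and transcription factor TFIIH (chr6:30907957-30908256, plus strand), RSBN1L (chr7:77696209-77696508, plus strand), PLOD1, a collagen lysyl hydroxylase (chr1:11934467-11934766, plus strand), and the zinc finger gene ZNF83 (chr19:52690447-52690746, minus strand) hold the highest-scoring members in such windows that lie over 1000 bp from any radioresistant summit. WARS2 (chr1:119140623-119140922, minus strand) and PRSS35 (chr6:83512284-83512583, plus strand) hold members closer to a radioresistant summit, and their RNA fell.
GTF2H4: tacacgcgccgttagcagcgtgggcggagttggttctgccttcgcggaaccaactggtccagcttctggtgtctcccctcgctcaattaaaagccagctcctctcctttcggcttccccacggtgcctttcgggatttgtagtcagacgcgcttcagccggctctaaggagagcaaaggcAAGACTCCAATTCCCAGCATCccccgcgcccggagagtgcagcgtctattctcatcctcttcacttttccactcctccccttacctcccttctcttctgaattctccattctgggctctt
RSBN1L: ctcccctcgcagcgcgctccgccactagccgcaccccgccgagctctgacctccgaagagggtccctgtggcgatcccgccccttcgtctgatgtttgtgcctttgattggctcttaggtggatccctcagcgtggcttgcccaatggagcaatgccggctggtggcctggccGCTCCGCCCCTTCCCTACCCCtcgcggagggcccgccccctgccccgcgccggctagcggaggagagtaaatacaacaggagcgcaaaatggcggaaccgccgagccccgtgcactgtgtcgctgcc
PLOD1: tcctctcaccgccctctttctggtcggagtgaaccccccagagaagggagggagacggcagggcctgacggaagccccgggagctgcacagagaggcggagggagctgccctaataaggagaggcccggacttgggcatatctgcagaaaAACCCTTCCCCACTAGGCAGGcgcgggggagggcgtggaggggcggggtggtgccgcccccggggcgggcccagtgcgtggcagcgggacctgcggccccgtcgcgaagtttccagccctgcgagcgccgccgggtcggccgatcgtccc
ZNF83: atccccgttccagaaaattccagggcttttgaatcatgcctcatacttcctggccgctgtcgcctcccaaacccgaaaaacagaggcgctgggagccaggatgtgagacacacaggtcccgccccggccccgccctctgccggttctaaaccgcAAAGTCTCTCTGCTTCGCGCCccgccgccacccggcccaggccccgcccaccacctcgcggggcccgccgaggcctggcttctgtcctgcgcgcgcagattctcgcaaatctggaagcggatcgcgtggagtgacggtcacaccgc
WARS2: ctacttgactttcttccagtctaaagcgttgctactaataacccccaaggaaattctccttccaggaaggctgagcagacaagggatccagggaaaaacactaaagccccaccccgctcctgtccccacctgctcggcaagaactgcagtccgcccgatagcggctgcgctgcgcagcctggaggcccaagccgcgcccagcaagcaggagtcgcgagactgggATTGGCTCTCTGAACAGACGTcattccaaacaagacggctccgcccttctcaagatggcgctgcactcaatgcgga
PRSS35: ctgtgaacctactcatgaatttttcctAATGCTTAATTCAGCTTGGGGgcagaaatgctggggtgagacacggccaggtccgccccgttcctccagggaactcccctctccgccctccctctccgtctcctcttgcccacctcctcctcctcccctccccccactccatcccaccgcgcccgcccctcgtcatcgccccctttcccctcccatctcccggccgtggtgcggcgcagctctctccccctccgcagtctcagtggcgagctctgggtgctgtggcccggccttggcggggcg

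The summits lay 60 bases (GTF2H4), 67 bases (RSBN1L), 90 bases (PLOD1), 86 bases (ZNF83), 16 bases (WARS2) and 213 bases (PRSS35) before the start. The first 4 were 6261, 31915, 26063 and 51761 bp from the nearest radioresistant summit, in the same order, and those of WARS2 and PRSS35 were 344 and 323 bp from one. GC content was 56.7% (GTF2H4), 68% (RSBN1L), 71% (PLOD1), 65.7% (ZNF83), 58% (WARS2) and 66.7% (PRSS35). All 6 windows hold the letters GGGCGG of a GC box on one strand or the other, and those of GTF2H4, RSBN1L and WARS2 also hold CCAAT.

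The members fell into 2 ranges of distance from the radioresistant list. A close range of 384 members (39.3%) lay over 250 and up to 1000 bp from a radioresistant summit, with a median of 318 bp, and 254 of them (66.1%) lay within 350 bp. The isolated range of 594 members (60.7%) lay over 1000 bp away, with a median of 52572.5 bp. Few of the isolated members lay just past 1000 bp: 59 were at 1001 to 10000 bp, against 337 at 10001 to 100000 bp, 186 at 100001 to 1000000 bp and 10 beyond. A further 2 sat on unplaced sequences with no radioresistant summit at all. No gap in distance lay at 250 bp: there were 204 control summits at 151 to 200 bp, 119 at 201 to 250 bp, 128 at over 250 to 300 bp, 126 at 301 to 350 bp and 35 at 351 to 400 bp.

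**Figure D1:**
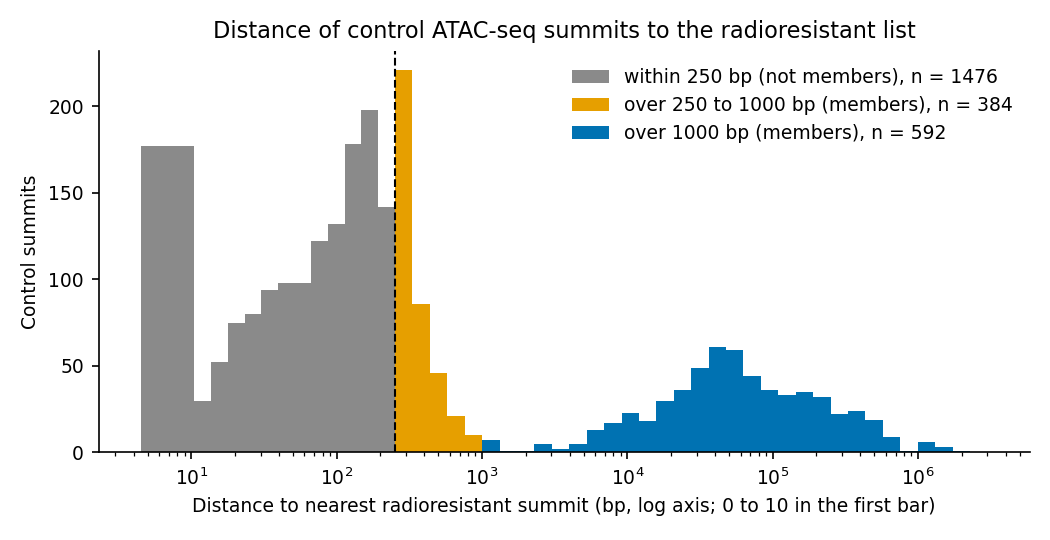
Histogram of the distance from each control summit to the nearest radioresistant summit (x axis, bp, logarithmic, with 0 to 10 bp in the first bar) against the number of control summits (y axis). Grey bars are the 1476 control summits within 250 bp, orange bars the 384 close members and blue bars 592 isolated members (2 without a radioresistant summit on their sequence are not drawn), and the dashed line marks 250 bp.

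Members just inside the choice lay 1 bp beyond the distance of 250 bp from a radioresistant summit, and 5 of them are named here. One was 228 bp from the start of PURB, a single-stranded DNA binding protein, with a score of 4.33, and others lay in DRC10 (4.33), VDAC1 (3.04) and ARID1B (4.87). The last, at chr17:23016501 with a score of 6.45, was outside genes. Just outside it, summits at chr1:143254553 (250 bp, score 6.16), chr2:226650138 (249 bp, 2.2), chr6:169163296 (249 bp, 1.36), chr17:81991724 (249 bp, 4.39) and chr3:58561111 (249 bp, 3.22) were left out. No position was listed more than once in either list, and 17 control summits stood at the very base of a radioresistant summit.

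Each close member has a radioresistant summit beside it with a score of its own. The score is the authors' own value, the −log10 of a q-value from the peak caller, and it ranks summits within a list, since it also moves with depth. Nearest radioresistant summits of the 384 close members had a median score of 6.27 (quartiles 4.37 and 9.02) in their list, whereas the members had 3.72 in theirs. As the lists differ in length and the depth of either library is unknown, these values stand side by side without a comparison.

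Within the control list, members had lower scores than the summits that have a radioresistant summit within 250 bp. The median score was 3.24 over the 978 members (rank-based 95% interval 3.22 to 3.39), 3.72 over close members, 3.10 over isolated members and 3.76 over the other 1476 control summits. Scores of 5 or more were held by 139 members (14.2%), by 81 close members (21.1%), by 58 isolated members (9.76%) and by 383 of the other summits (25.9%). The scores took 237 distinct values among the members, and 54 members shared the value 2.26. The 10 commonest values held 26.4% of the members.

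Split by score into 5 groups of 490 or 491 summits, the control list held 51.8% members in the lowest group, then 42.4%, 40.3% and 38.3%, and 26.5% in the highest. The fall came with the isolated range, whose share went from 36.9% in the lowest group through 27.7%, 25.5% and 19.8% to 11.2% in the highest. The close range held 14.9%, 14.7%, 14.9%, 18.5% and 15.3% of the groups. Among the 245 highest-scoring control summits, 49 (20%) were members and 17 of those were isolated.

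**Figure D2:**
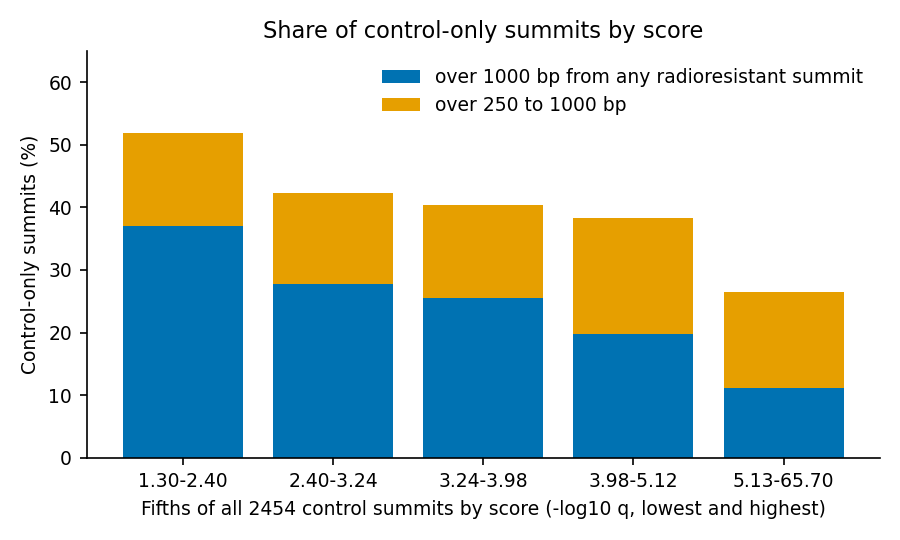
Share of control summits that are members (y axis, percent) in each of 5 equal groups of the control list by score, lowest first (x axis, with the lowest and highest score of each group), as stacked bars of isolated (blue) and close (orange) members. The isolated share falls from 36.9 to 11.2%, while the close share stays between 14.7 and 18.5%.

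Gene starts were nearer to close members than to isolated ones. Of 925 members on chromosomes for which gene starts were used, 257 (27.8%, exact interval 24.9 to 30.8%) lay within 1 kb of a listed start, 402 (43.5%) elsewhere in a gene and 266 (28.8%) outside genes. Among 362 close members the shares were 45.6% (40.4 to 50.9%), 33.1% and 21.3%. Among 563 isolated members they were 16.3% (13.4 to 19.7%), 50.1% and 33.6%. The 1367 other control summits had 35.3% (32.8 to 37.9%) within 1 kb of a start, and the 10861 radioresistant-only summits had 33.7% (32.8 to 34.6%). The median distance to the nearest listed start was 4334 bp for close members, 25740 bp for isolated members and 10386 bp for the other control summits. The intervals cover counting only, as all control summits come from 1 library, and the table of starts held 79.1% of protein-coding genes.

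**Figure D3:**
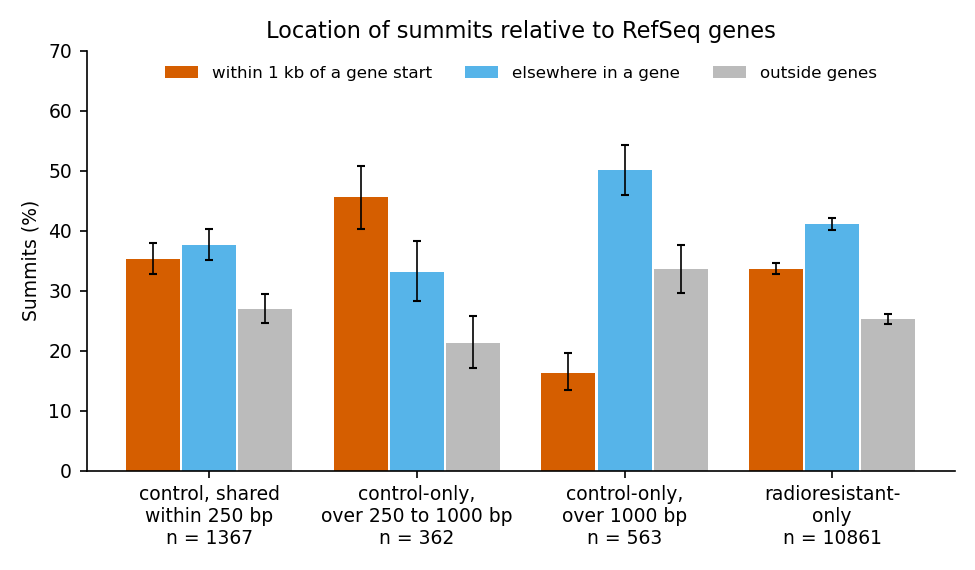
Share of summits (percent) within 1 kb of a listed gene start, elsewhere in a gene and outside genes, for close members, isolated members, the other control summits and radioresistant-only summits. The share within 1 kb of a start is 45.6% for close members and 16.3% for isolated members, and error bars are exact intervals of counting error.

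Around the starts themselves the members were spread more widely than the other control summits. Members within 1 kb had a median position 31 bp before the start (quartiles 180 bp before and 148 bp after), and 93 of 257 (36.2%) lay within 100 bp of it. Of the 483 other control summits within 1 kb of a start, 217 (44.9%) lay within 100 bp, 155 (32.1%) further upstream and 111 (23%) further downstream. For the members, 83 (32.3%) lay further upstream and 81 (31.5%) further downstream. Radioresistant-only summits within 1 kb of a start had 38.5% within 100 bp of it. As members were chosen by their distance from radioresistant summits, the choice itself can shape this spread, and the difference was not tested. At 165 close members within 1 kb of a start, the member's median distance from the start was 172 bp and that of its radioresistant partner 256 bp. The partner was the nearer of the pair at 70 of them (42.4%), and the pair stood on opposite sides of the start at 80 (48.5%).

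**Figure D4:**
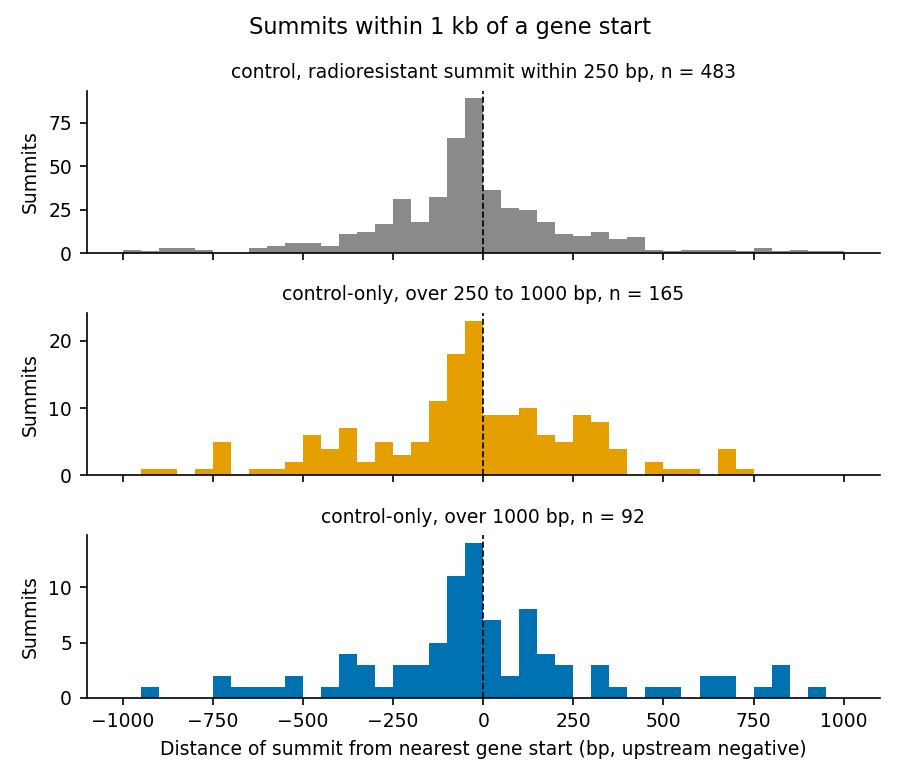
Position of summits relative to the nearest listed gene start (x axis, bp, negative before the start) within 1 kb against the number of summits (y axis), for 483 other control summits (top), 165 close members (middle) and 92 isolated members (bottom). Both ranges of members together have 36.2% of these summits within 100 bp of the start, against 44.9% for the other control summits.

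Members were found on all chromosomes except Y, and few lay in groups. Chromosome 1 held 142 (14.5%), chromosome 6 held 82, chromosome 3 held 74, chromosome 5 held 73 and chromosome 7 held 64. The share of a chromosome's control summits that were members ran from 25.9% on chromosome 14 (15 of 58) to 56.3% on chromosome 18 (9 of 16). Another control summit lay within 1 kb of 24 members (2.45%), and within 100 kb of 247 (25.3%) against 490 of the other 1476 (33.2%). The densest megabase held 5 members, all isolated, at chr1:23189078-23917009. On chromosomes 1 to 22, X and Y, 600 of 964 members were inside the span of at least 1 gene. Of the 642 genes so marked, 622 held 1 member, 19 held 2 and TNS3, a focal adhesion protein, held 3.

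Transfer RNA genes, which RNA polymerase III transcribes from short nucleosome-free stretches, were near 12 members (within 500 bp; 1.23%, exact interval 0.636 to 2.13%). Of these, 11 were close members (2.86% of that range) and 1 was isolated (0.168%). The other control summits had 35 (2.37%) and the radioresistant-only summits 60 (0.526%). Small nuclear RNA genes, among them RNU4ATAC of the minor spliceosome, were near 4 members (0.409%) against 24 of the other control summits (1.63%). Hairpins of miRNAs were near 7 members (0.716%), against 0.474% of the other control summits and 0.342% of the radioresistant-only ones. No member lay within 500 bp of an annotated ribosomal RNA or small nucleolar RNA gene. A count of 0 in 978 has an exact upper bound of 0.376%. The other control summits had 5 (0.339%) and 4 (0.271%), and the radioresistant-only summits 0.0526% and 0.0439%, in the same order.

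The highest-scoring members were mostly close ones. Of the 10 highest on chromosomes 1 to 22, X and Y, 9 had a radioresistant summit at 254 to 503 bp, 7 were inside a gene and 1 was within 1 kb of a start. The highest, at chr17:43284108, had a score of 18.7, ranked 15 in the control list, was outside genes and lay 295 bp from a radioresistant summit scored 25.2. The next, at chr1:7118034 with 13.7, was inside CAMTA1, a calmodulin-binding transcription factor. A member at chr1:208108046 (11.5) was inside PLXNA2, a receptor for semaphorins, with a radioresistant summit scored 3.36 at 317 bp. One at chr2:27799480 (10.0) was inside the ribokinase gene RBKS, and one at chr5:149062665 (9.65) was 397 bp from the start of SH3TC2, a gene of Schwann cell myelination.

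The single isolated member among those 10 was at chr5:23527137, inside PRDM9, the histone methyltransferase that places meiotic recombination. It had a score of 10.4, ranked 48 in the control list, and lay 1296775 bp from the nearest radioresistant summit. PRDM9 RNA was 0, 0 and 0.0231 TPM (transcripts per 1000000) in the control libraries and 0 in each radioresistant library, so the gene was at or near 0 in both groups. The 10 highest isolated members had scores of 6.80 to 10.4, 5 of them were inside a gene and none was within 1 kb of a listed start. They included 3 members outside genes, whose nearest listed starts were 21520 bp away for EIF2B2, a translation factor subunit (chr14:74981401, 6.97), 52804 bp for CBX7, a Polycomb protein (chr22:39205484, 6.97), and 22581 bp for A4GALT, a glycolipid synthase (chr22:42743882, 6.93), and 1 inside the kinase gene STK24 (chr13:98484885, 6.82).

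Outside the chromosomes proper, 14 members lay on the mitochondrial genome or on unplaced and unlocalized sequences, where copies are many and reads map ambiguously. They held the highest score of all members, 25 on the mitochondrial genome (position 16295, 841 bp from a radioresistant summit). A pair on the unplaced sequence KI270438v1 had 22.5 and 14.3.

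RNA of nearby genes was not used to choose the members and could be tested in the 3 control and 3 radioresistant libraries. Both groups expressed glial genes: 8 of 9 glial markers in control and 7 in radioresistant libraries reached 1 TPM in every library, and OLIG2 was under 0.1 TPM in all 6. The summed glial markers were 14963 to 15259 TPM in control and 6678 to 7273 TPM in radioresistant libraries. VIM made most of each sum. EGFR was higher, at 40.3, 46.1 and 43.5 TPM in radioresistant libraries against 38.4, 39.7 and 30.2 TPM in control. GFAP, the astrocyte filament, was 3882, 4073 and 4079 TPM in control and 102, 83.9 and 56.2 TPM in radioresistant libraries, without overlap. Sums of 5 immune markers were at most 0.920 TPM in control and 1.96 TPM in radioresistant libraries, and PTPRC was under 0.1 TPM in all 6. Sums of 3 endothelial markers were 7.34 to 8.31 TPM in control and 0.550 to 1.07 TPM in radioresistant libraries. CDH5 made most of them, while PECAM1 and VWF were at most 0.0616 and 0.310 TPM in any library. The sums, control first, were 26.2 to 40.7 and 30.5 to 42.4 TPM for 3 epithelial markers. They were 17.1 to 23.5 and 9.66 to 12.9 TPM for 3 neuronal markers, and at most 1.02 and 0.529 TPM for 3 oligodendrocyte markers. KRT18 carried the epithelial sums, with EPCAM at most 0.122 TPM and CDH1 at most 0.013 TPM. SYT1 made most of the neuronal sums, and RBFOX3 was at most 0.073 TPM. What part the shifts in these markers have in the results below was not tested. IFI16, the DNA sensor named in the study's title, was 70.3, 71.1 and 49.6 TPM in control and 250.8, 309 and 243 TPM in radioresistant libraries. The heme oxygenase gene HMOX1, also in the title, was 19.7, 25 and 26.4 TPM in control and 178, 168 and 259.9 TPM in radioresistant libraries.

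Genes near control-only summits were about as often higher as lower in radioresistant cells. A listed start within 10 kb was found for 334 members, which gave 428 genes in the RNA table, of which 362 were expressed enough to test and 66 were not. With limma on log2(TPM + 1) and an adjusted p under 0.05 over all genes, 70 of the 362 (19.3%) were higher in radioresistant cells, where 16.9% of all 13127 genes tested were higher. In the other direction 73 (20.2%) were lower, where 27% of all genes tested were lower. The remaining 219 were not called. The median log2 difference, radioresistant minus control, was -0.04 over these genes and -0.11 over all genes tested. Leaving out control replicate 2 brought the lower genes from 73 to 46 (12.9%), and over all genes from 27% to 17.4%. Leaving out radioresistant replicate 3 brought them to 47 (13.2%), and over all genes to 19.2%. Testing without a filter on low values gave 23 higher (5.37%) and 14 lower (3.27%), against 3.28% and 4.08% of all genes. Fewer cells of a kind and less RNA per cell cannot be told apart in these bulk libraries.

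Counts for both ranges of distance stand beside those of the other summits. Near close members 38 of 218 genes (17.4%) were higher and 50 (22.9%) lower. Near isolated members 33 of 147 (22.4%) were higher and 24 (16.3%) lower. For the 118 tested genes with a control-only summit but no radioresistant summit within 10 kb, 27 (22.9%) were higher and 17 (14.4%) lower. Near the other control summits 95 of 619 (15.3%) were higher and 165 (26.7%) lower, and near radioresistant-only summits 632 of 4352 (14.5%) were higher and 1195 (27.5%) lower. A gene can have several kinds of summit nearby and all counts come from 1 fit, so the differences between these shares were not tested.

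**Figure D5:**
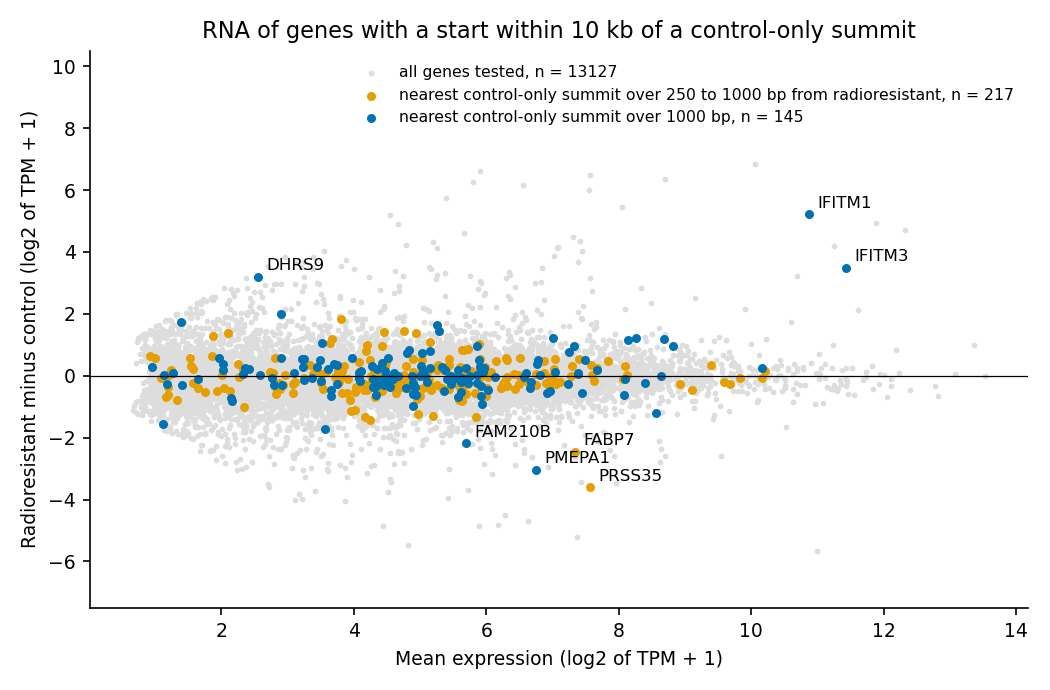
RNA of genes with a start within 10 kb of a control-only summit, as the radioresistant minus control difference (y axis, log2 of TPM + 1) against mean expression (x axis, same scale). Orange points are genes whose nearest member is close, blue points those whose nearest member is isolated, and grey points all 13127 genes tested; most coloured points lie near 0, with IFITM1 and IFITM3 far above and PRSS35 and PMEPA1 far below.

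At least 2-fold changes without overlap between groups were found for 15 lower genes (4.14% of the 362, where 6.39% of all genes tested were so called) and 22 higher genes (6.08%, where 4.94% of all genes were). The 10 largest falls ran from -3.59 to -1.30 on the log2(TPM + 1) scale (limma adjusted p from 2.1e-08 to 0.00039). No radioresistant summit lay within 10 kb of a start for 4 of these genes, and for 118 of all 362. PRSS35, a serine protease-like secreted protein, was 381, 355 and 309 TPM in control and 30.4, 30.4 and 23.3 TPM in radioresistant libraries. Every control library was far above every radioresistant one, and the log2 difference was -3.59 (SE 0.14). Its member stood 213 bp before the start, in the window printed above, and a radioresistant summit 323 bp from it.

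PMEPA1, a membrane protein that dampens TGF-beta signalling, was 198, 202 and 174 TPM in control and 23.5, 21.9 and 22 TPM in radioresistant libraries, with a log2 difference of -3.03 (SE 0.11). Its isolated member lay 8122 bp before the start and 49956 bp from a radioresistant summit. FABP7, the brain fatty acid binding protein of radial glia, was 306, 266 and 245 TPM in control and 57.7, 47.8 and 41.9 TPM in radioresistant libraries, with -2.45 (SE 0.14). It had a close member 192 bp after its start. FAM210B, a mitochondrial protein, went from 92.0, 90.6 and 70.4 TPM to 18.0, 18.6 and 16.2 TPM, with -2.19 (SE 0.14), and its isolated member was 920 bp after the start. The groups did not overlap for these genes, as the choice required, and 53.1% of all genes tested had no overlap.

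FBN2, the microfibril protein fibrillin-2, was 18.8, 17.8 and 14.9 TPM in control and 4.38, 4.76 and 4.33 TPM in radioresistant libraries. Its isolated member was 609 bp before the start, had a score of 1.46, near the lowest in the list, and lay 197879 bp from a radioresistant summit. PDE10A, a phosphodiesterase of cyclic nucleotides, was 2.55, 2.43 and 1.72 TPM in control and at most 0.122 TPM in radioresistant libraries, so it entered the test through the control group alone. The other falls were those of the postsynaptic adhesion gene NLGN1 (-1.42), BTBD19 (-1.33), the Rab GTPase regulator TBC1D5 (-1.32) and the mitochondrial tryptophanyl-tRNA synthetase WARS2 (-1.30), all with close members. WARS2 was 57.3, 51.4 and 44.2 TPM in control and 17.3, 22.3 and 20.9 TPM in radioresistant libraries, and its member, 16 bp before the start, was the nearest to a start among the 10.

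The 10 largest rises ran from 1.42 to 5.21 on the same scale (limma adjusted p from 3.5e-09 to 0.00057). No radioresistant summit lay within 10 kb of a start for 6 of these genes, and for 118 of all 362. IFITM1, an antiviral membrane protein induced by interferon, was 93.4, 110 and 88.5 TPM in control and 4114, 3914 and 2951 TPM in radioresistant libraries. Its neighbour IFITM3, of the same family, was 402, 462 and 487 TPM in control and 5582, 5191 and 4486 TPM in radioresistant libraries. Both rose in every library, by 5.21 (SE 0.14) and 3.49 (SE 0.12), although family copies make the split of reads between them uncertain. One isolated member, with a score of 4.89, served both: it lay 5188 bp after the start of IFITM1, 1632 bp after that of IFITM3 and 77885 bp from the nearest radioresistant summit.

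DHRS9, a retinol dehydrogenase, was 0.198, 0.0666 and 0.110 TPM in control and 6.73, 9.98 and 12.1 TPM in radioresistant libraries. The long non-coding RNA LUCAT1 was 0.724, 0 and 0 TPM in control and 3.11, 3.20 and 2.62 TPM in radioresistant libraries. For both genes every control library was under 1 TPM, so the filter fixed the direction. Of the 362 genes, 4 had the control group and 3 the radioresistant group under 1 TPM, and all 7 were called. ARHGAP22, a regulator of Rac, was 1.5, 2.11 and 2.36 TPM in control and 11.4, 10.6 and 10.8 TPM in radioresistant libraries, with a log2 difference of 2.01 (SE 0.16). Its member was 697 bp after the start and 210460 bp from a radioresistant summit.

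TBC1D2, a Rab7 regulator, was 4.78, 4.63 and 6.02 TPM in control and 23.2, 20.8 and 18.7 TPM in radioresistant libraries. It was 1 of 3 genes with 2 members within 10 kb of a start. The others were SYNJ2, a phosphoinositide phosphatase, with a log2 difference of -0.50 (limma adjusted p = 0.012), and the transcription factor gene CREB5, with -0.24 (limma adjusted p = 0.25). The adaptor gene BCAR3 (1.64) had an isolated member and 4 radioresistant summits within 10 kb. EGR1 (1.45), an immediate early transcription factor, SERTAD1 (1.44) and ZFP36 (1.42), an RNA-binding protein that shortens the life of inflammatory mRNAs, also rose. EGR1 was 9.64, 12.4 and 19.7 TPM in control and 36.8, 39.7 and 38.0 TPM in radioresistant libraries, with the widest spread in the control group.

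Genes of 7 lists that bear on glioma and on the study had a control-only summit within 10 kb of a listed start in 8 of 85 cases (9.41%). Over all genes with a listed start this was 428 of 17240 in the RNA table (2.48%) and 362 of 10433 tested (3.47%). The lists hold genes chosen with earlier results of these data known. For the counts below, 16.9% of all 13127 genes tested were higher in radioresistant cells and 27% lower. Of 10 astrocyte and radial glia genes with a listed start, 1 (FABP7) was near a member, while 10 of 11 tested were lower in radioresistant cells and none higher. Of 9 neural adhesion genes 1 (NLGN1) was near a member, with 8 of 10 tested lower and 1 higher. Of 21 interferon-stimulated genes 2 (IFITM1 and IFITM3) were near a member, the same 1 for both, while all 28 tested were higher. No member lay near any of 10 glial transcription factor genes, of which 7 of 12 tested were lower and 2 higher.

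Among 12 mesenchymal and matrix genes with a listed start, COL6A3 and LOX had a member within 10 kb; 3 of 15 tested genes of the list were higher and 4 lower. LOX, the collagen cross-linking lysyl oxidase, was 12.8, 12.1 and 9.13 TPM in control and 24.2, 26.6 and 19.1 TPM in radioresistant libraries, a rise of 0.98 (SE 0.17; limma adjusted p = 0.0009). COL6A3, a chain of collagen VI, was 9.62, 9.69 and 9.50 TPM in control and 9.12, 8.59 and 9.55 TPM in radioresistant libraries, with -0.07 (limma adjusted p = 0.66). Of 13 AP-1 and immediate early genes 1 (EGR1) was near a member, with 12 of 15 tested higher and none lower. Of 10 iron, heme and ferroptosis genes 1 (TXNRD1) was near a member, with 5 of 12 tested higher and 1 lower. TXNRD1, the cytosolic thioredoxin reductase, was 270, 236 and 247 TPM in control and 480, 584 and 651 TPM in radioresistant libraries, a rise of 1.18 (SE 0.13), and its member lay 155535 bp from a radioresistant summit.

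RNA of the printed genes with an isolated member in the promoter window did not pass the test, except for ZNF83. Among all genes tested, 56.1% were not called. GTF2H4 was 43.0, 49.0 and 46.6 TPM in control and 47.5, 40.1 and 44.5 TPM in radioresistant libraries (log2 difference -0.07, limma adjusted p = 0.66). RSBN1L had -0.29 (limma adjusted p = 0.17) and PLOD1 -0.11 (limma adjusted p = 0.48). The member of RSBN1L also lay 127 bp before the start of the long non-coding RNA APTR, which rose by 0.53 (limma adjusted p = 0.014). ZNF83 fell, from 43.0, 43.3 and 28.7 TPM in control to 18.0, 23.2 and 15.4 TPM in radioresistant libraries, by 0.98 (SE 0.19; limma adjusted p = 0.002). A further 9 tested genes hold one of the highest-scoring or highest isolated members or have the listed start nearest to it, at any distance. Of these, 4 were higher, 2 were lower and 3 were not called. Among all genes tested, 16.9% were higher and 27% lower, and 9 genes are too few to set against these shares. CAMTA1 fell by 0.54 (limma adjusted p = 0.002) and MRPL33, a mitochondrial ribosomal protein, by 0.41 (limma adjusted p = 0.0097). PLXNA2 rose by 0.51, the pseudogene transcript DUXAP8 by 0.87, A4GALT by 1.35 and CBX7 by 0.79 (limma adjusted p from 0.0014 to 0.012). RBKS had 0.15 (limma adjusted p = 0.46), EIF2B2 -0.0037 (limma adjusted p = 0.99) and STK24 0.17 (limma adjusted p = 0.24).

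Promoter windows that hold a control-only summit were GC-rich. Of the members, 117 lay in 144 windows of 136 genes, with a median GC content of 63% (62% for isolated members), against 64% for the other control summits, 64% for radioresistant-only summits and 58.7% over all 35116 windows. The median number of CpG was 24, against 14 over all windows. Searched on both strands, the GC box GGGCGG was in 64.6% of the members' windows, 70.8% of those of the other control summits and 45.0% of all windows. The ETS letters CCGGAAG were in 25%, 26.2% and 10.3%, CCAAT in 43.8%, 49.7% and 34.6%, and the NRF1 letters GCGCATGC in 9.72%, 6.83% and 3.05%, in the same order.

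The cyclic AMP response element (CRE) TGACGTCA, which CREB and ATF factors bind, was in 12 of 144 windows (8.33%, exact interval 4.38 to 14.1%). It was in 3.01% of the windows of the other control summits, 3.76% of those of radioresistant-only summits and 1.85% of all windows. Counted by summit, as neighbouring genes share windows, these were 9 of 117 members (7.69%), 8 of 286 other control summits (2.80%) and 70 of 1855 radioresistant-only summits (3.77%). The element lay 7 to 129 bp from the summit. AP-1 sites, TGANTCA, were in 10.4% of members' windows, 5.46% of the others', 4.76% of those of radioresistant-only summits and 7.71% of all windows. A match of letters is a description and not a bound site, and 13 motifs were searched. Of these windows those of NEK1, a kinase of cilia and DNA repair (chr4:169612600-169612659, minus strand), and HAUS2, a spindle protein (chr15:42548767-42548826, plus strand), are printed for 60 bases around the element, which is in capitals, as members with the element near the summit (7 and 32 bp).
NEK1: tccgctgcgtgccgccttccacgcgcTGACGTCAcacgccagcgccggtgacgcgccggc
HAUS2: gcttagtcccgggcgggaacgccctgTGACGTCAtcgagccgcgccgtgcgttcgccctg

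RNA of NEK1 was 14.6, 14.0 and 10.6 TPM in control and 11.8, 15.1 and 12.0 TPM in radioresistant libraries, and that of HAUS2 was 26.9, 24.3 and 22.2 TPM in control and 20.6, 25.1 and 27.8 TPM in radioresistant libraries. The groups overlapped for both genes. Of 9 tested genes with the element in such a window, 1 was higher, 1 was lower and 7 were not called. Among all 13127 genes tested, 16.9% were higher and 27% lower, and 9 genes are too few to set against these shares. The higher gene was RAB5IF, at 157, 155 and 246 TPM in control and 414, 410 and 444 TPM in radioresistant libraries (1.21, SE 0.16). The lower was ST7 (-0.37, limma adjusted p = 0.044). NEK1, HAUS2, RAB5IF and ST7 were chosen after their values were seen.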

How the data were processed

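ATAC-seq was done on 1 control and 1 radioresistant library and RNA-seq on 3 libraries of each, and groups were taken from the labels. The authors deposited 1 list of summits per library, whose score is a −log10 q-value by the layout of the file; the lowest scores correspond to q-values of 0.0497 and 0.049. Per the submitters' processing notes, Trim Galore 0.6.6, Bowtie2 2.2.5, SAMtools 1.10 and MACS2 2.1.4 were among the tools for these libraries and hg38 was the build. The notes also name TopHat, Cufflinks 2.2.1 and featureCounts, and which of them made the RNA values, with what annotation and strand setting, is not given in the sources used here. RNA values were deposited as TPM under a name that says counts: every column summed to 1000000 and held values that were not whole, so the depth is unknown and no count test was run. RNA columns carry codes only and were read as control and radioresistant by the N and R codes of the ATAC-seq lists and by replicate number.

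Positions are on hg38, counted from 1. Gene starts (35116 starts of 27305 genes, RefSeq GRCh38.p14) covered 15842 of 20033 protein-coding genes and none on chromosome 8, whose 39 members are left out of counts by gene start. Of those genes, 17240 were named in the RNA table, 1095 by an older name. Expression as log2(TPM + 1), on which changes of low genes look smaller than they are, was fitted with limma 3.58.1 (R 4.3.3) where 3 or more of 6 libraries reached 1 TPM, with trend and robust moderation and Benjamini-Hochberg adjustment over all genes (threshold 0.05). The 28 entries with names turned into dates (0.115 to 0.19% of the values) were left out. The fit was tested on simulated data. Other steps used Python 3.11.15, pandas 2.3.3 and SciPy 1.17.1. Intervals are exact (Clopper-Pearson, 95%) and cover counting error only.

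The members, gene lists, markers and tests were chosen with earlier results of these data known. Named regions were the 10 highest-scoring members and the 5 summits on either side of 250 bp. Named genes were the 10 largest falls and rises near members (adjusted p under 0.05, at least 2-fold, no overlap), list members near a summit, genes with several summits, and IFI16, HMOX1 and GFAP; the 10 highest isolated members, TNS3, the genes of printed windows and genes beside the highest members were added after values were seen. No genome was used, so sequence came from promoter windows only. Alternatives covered distances, scores, filters, pseudocount, moderation, centring, a replicate block and left-out libraries. The hairpin libraries were not used here.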

Additional observations from a re-analysis of the deposited data

How the results depend on the processing

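The number of control-only summits followed the distance chosen: 1568 at 100 bp, 645 at 500 bp and 594 at 1000 bp, against 978 at 250 bp, and it was 407 among control summits at or above the median score. The share within 1 kb of a listed start (27.8%) became 23.8% for a window of 500 bp and 16.3% for the isolated members alone, whose median score was 3.10 against 3.24. Counting either end of any protein-coding or long non-coding gene as a start, an alternative added after the data were seen, gave 30.4%. Another control summit lay within 500 bp of 11 members, against 24 within 1 kb. Near members, the 70 higher and 73 lower genes became 176 and 183 for starts within 50 kb, 33 and 24 for isolated members, and 23 and 14 without a filter on low values, where all genes gave 803 and 997. Leaving out 1 library gave 51 to 82 higher and 46 to 105 lower genes near members. Over all genes, these fits called 11.6 to 21.4% higher and 17.4 to 34.3% lower. The lower count was 46 without control replicate 2 and 47 without radioresistant replicate 3, where lower genes among all genes went from 3542 to 2237 and 2476. The fit without a filter called fewer genes among all genes as well, and the cause was not tested.

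Same-numbered libraries had correlations of deviations from their group means of -0.377, 0.245 and 0.081, and differently numbered ones ran from -0.429 to 0.394. These values show no pairing by replicate number, and with 3 libraries per group they cannot exclude one. A replicate block gave 65 higher (18.0%) and 69 lower (19.1%) genes, against 16.1% and 26.4% of all genes. Centring on the median of all genes, which shifts by -0.106 (log2), gave 86 (23.8%) and 63 (17.4%). With centring, 20.7% of all genes were higher and 23.7% lower. Centring also turned the sign of 2 values that were not called, COL6A3 to 0.011 and GTF2H4 to 0.016. Of 373 recomputed values of 32 named genes, 360 kept direction and call, 9 lost their call, 2 gained one and 2 changed sign. SYNJ2 lost its call without control replicate 2, without radioresistant replicate 3 and without a filter. Planned sequence windows of 200 and 300 bases around summits were not run, as no genome was used. Read depth limits every ATAC-seq count here, and it is unknown.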
